A study of Mus musculus with 9 samples.

Results

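The MHC class I and interferon response was followed through 9 of its genes in RNA sequencing of blood stem cells from the bone marrow of old and young mice. The genes were B2m, H2-K1, H2-D1, Ifitm1, Ifitm3, Bst2, Irf1, Irf7 and Isg15. They were taken by name as a functional group, by matching the Ensembl identifiers of the deposited count table to mouse gene symbols, and all 9 were found among the 52550 gene identifiers. All 9 also passed the filter on low counts that left 32582 genes for testing.

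MHC class I molecules carry peptides from inside the cell to its surface, where CD8+ T cells and natural killer cells read them. Each molecule is a heavy chain, such as those made from H2-K1 and H2-D1, held together with the light chain beta-2 microglobulin, made from B2m. Interferons bind receptors that signal through JAK kinases and STAT proteins, and STAT complexes and interferon regulatory factors then switch on target genes through short promoter elements, class I genes among them. Blood stem cells are known to respond to interferon by entering the cell cycle, and stem cells of several tissues keep some interferon-stimulated genes on without added interferon.

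The promoter elements through which these genes are known to be switched on can be read in the RefSeq promoter sequences of genome build GRCm38.p6, which run from 250 bases before to 50 bases after each gene's start. All 9 genes matched, with 11 windows in all because H2-K1 and Irf1 each have a second start. The palindromic core of an NF-kB site, GGGATTCCC, was found in 116 of 32851 promoters (0.353%). H2-K1 and H2-D1 both held it, followed by the run GTTTCACTT, searched as a class I interferon element. This run was picked as a search term after the sequences were seen and occurs in 131 promoters (0.399%). Both strands were searched for every motif. The stretch of H2-K1 (chr17:34000429-34000458, minus strand) and that of H2-D1 (chr17:35262923-35262952, plus strand) are shown 5′ to 3′ with both runs in capitals, because both heavy chain promoters hold them. They are identical at 29 of 30 bases.
H2-K1: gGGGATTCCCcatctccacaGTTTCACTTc
H2-D1: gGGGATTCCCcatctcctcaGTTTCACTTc

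The core of an interferon-stimulated response element, searched as GAAANNGAA, was present in 2812 of the 32851 promoters (8.56%). It was found in the windows of B2m, Bst2, Isg15 and Ifitm3, with 1, 2, 3 and 2 matches in that order. The stretches that carry those matches are shown with the matches in capitals, 5′ to 3′ on the gene's strand. They are chr2:122147517-122147596 (plus strand) for B2m, chr8:71537553-71537632 (minus strand) for Bst2, chr4:156200849-156200928 (minus strand) for Isg15 and chr7:141010714-141010743 (minus strand) for Ifitm3, where the matches lie just after the start.
B2m: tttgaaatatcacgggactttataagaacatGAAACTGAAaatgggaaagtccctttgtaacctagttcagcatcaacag
Bst2: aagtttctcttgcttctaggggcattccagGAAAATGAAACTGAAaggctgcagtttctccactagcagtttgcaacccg
Isg15: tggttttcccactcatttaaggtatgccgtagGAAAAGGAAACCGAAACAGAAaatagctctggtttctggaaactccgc
Ifitm3: gGAAAAGGAAacttctgaGAAACCGAAact

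Matches that follow each other in Bst2 and in Isg15 share bases. GAAANNGAA was not found in the windows of H2-K1, H2-D1, Ifitm1, Irf1 or Irf7, which says only that it is not in those windows. Another interferon element, the gamma-activated site searched as TTCNNNGAA, was in 2726 promoters (8.30%). It had 1 match each in Bst2, Ifitm3 and 1 window of Irf1. Of the 2 windows of Irf1, 1 held the NF-kB core. A match describes the letters and not a site in use.

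Gene expression was measured in 9 libraries of haematopoietic stem cells, 3 in each of 3 groups. Old KO cells came from mice aged 22 to 24 months with the genotype B6N.129S6-Sphk2tm1Rlp/J (Sphk2 cKO), old WT cells from wild-type mice of that age range, and young WT cells from wild-type mice aged 2 months. Sphk2 encodes sphingosine kinase 2, and the labels name no Cre driver for the cKO allele. Each library was made from 1000 sorted cells that stained for CD150, Sca1 and c-Kit and lacked CD48 and lineage markers. The labels call the libraries technical replicates and name no mouse, so p-values measure only the spread between these libraries, which may be technical.

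The groups differed in depth and in the share of reads that fell inside genes. These differences follow the groups, so their effect on any gene cannot be told apart from that of age or genotype. Counts in genes ran from 11284847 to 17544945 in old KO libraries, from 3145167 to 5115003 in old WT libraries and from 28088637 to 74021822 in young WT libraries. Counts outside genes made up 45.0% to 61.9%, 80.8% to 87.7% and 6.51% to 12.5% of those groups' libraries in the same order. A background was therefore read from olfactory receptor genes, which blood cells hardly use. It came to 5.55 to 7.29 reads per kb of exon in old KO, 5.41 to 10.4 in old WT and 1.09 to 1.43 in young WT libraries. A gene counts as above background where it reaches both 20 counts and 5 times what this density predicts for its length. Of 12 stem cell markers, 9, 0 and 11 were above background in at least 2 of 3 old KO, old WT and young WT libraries. Ly6a, the gene of the sorted marker Sca1 and itself interferon-stimulated, reached at most 55.1 CPM. In these bulk samples, fewer cells of a type and less RNA per cell cannot be told apart. Sphk2 itself had 12, 23 and 8 counts in old KO, 20, 1 and 35 in old WT and 1684, 88 and 576 in young WT libraries. It was above background only in young WT, so its counts did not separate old KO from old WT.

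The class I light chain and the 2 heavy chains were among the strongest signals in old KO and young WT. In old WT this held less evenly. There H2-K1 ranked 51 to 110 by level per exon length, B2m 12 to 251 and H2-D1 148 to 510. Those old WT libraries had 640 to 1129 protein-coding genes above background. Levels are given as CPM, which sets the count of a gene against all counts in genes of its library. B2m (ENSMUSG00000060802, chr2:122147686-122153083 in GRCm38) had 3409, 4569 and 5889 CPM in old KO, 1917, 3489 and 96.6 CPM in old WT and 5662, 5746 and 3865 CPM in young WT libraries. Old WT library 3 was far below every other library, and the old WT libraries all lay below the young WT ones, while old KO and young WT overlapped. The 96.6 CPM rested on 333 counts, against 45872 to 103321 counts in old KO and 119935 to 419105 in young WT libraries. Differences were tested on the counts with edgeR's quasi-likelihood test over all 9 libraries and Benjamini-Hochberg adjustment over all tested genes, and "called" means an adjusted p under 0.05. TMM factors rescale libraries on the assumption that most genes are level. With them, B2m was called lower in old WT than in young WT, by a log2 fold change of -5.29 ± 1.19 (SE, adjusted p = 0.00915, edgeR). With total counts in genes as library size, the same change was -1.46 ± 0.85 (adjusted p = 0.134, edgeR) and was not called. Old KO against old WT gave 3.11 ± 1.08 with TMM (adjusted p = 0.232, edgeR) and 1.32 ± 0.84 with total counts (adjusted p = 0.239, edgeR), neither called.

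That gap between scalings touches every fold change here. TMM factors ran from 0.725 to 1.37 in old KO, 3.20 to 5.45 in old WT and 0.172 to 0.331 in young WT libraries. Relative to total counts they shifted the median gene by 1.90 log2 units in old KO against old WT, by -3.92 in old WT against young WT and by -2.01 in old KO against young WT. Changes with total counts therefore stand beside many of those with TMM.

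H2-K1 (ENSMUSG00000061232, chr17:33996017-34000347), a classical class I heavy chain, had 1794, 1720 and 2218 CPM in old KO, 3706, 1545 and 1094 CPM in old WT and 1981, 1788 and 1850 CPM in young WT libraries. It was the most even of the 9 genes in young WT and spread around the same level in both old groups, all ranges overlapping. With TMM it was called lower in old WT than in young WT, at -3.79 ± 0.93 (adjusted p = 0.0118, edgeR). With total counts the sign turned, at 0.20 ± 0.66 (adjusted p = 0.807, edgeR), so this call is no larger than the shift of the scaling.

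H2-D1 (ENSMUSG00000073411, chr17:35262730-35267499), the other classical heavy chain of this strain, had 1707, 2459 and 3380 CPM in old KO, 509, 936 and 63.5 CPM in old WT and 1037, 1727 and 2170 CPM in young WT libraries. Every old WT library lay below every old KO and every young WT library, and old KO overlapped young WT. The old WT decrease against young WT was called with TMM, at -5.45 ± 1.17 (adjusted p = 0.00792, edgeR), and not with total counts, at -1.69 ± 0.85 (adjusted p = 0.0845, edgeR). Old KO against old WT gave 4.13 ± 1.10 with TMM (adjusted p = 0.119, edgeR) and 2.31 ± 0.87 with total counts (adjusted p = 0.152, edgeR). Neither was called. The sign was positive in all 18 settings tried, as it was for B2m, but these settings refit the same libraries and add no independent evidence.

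**Figure D1:**
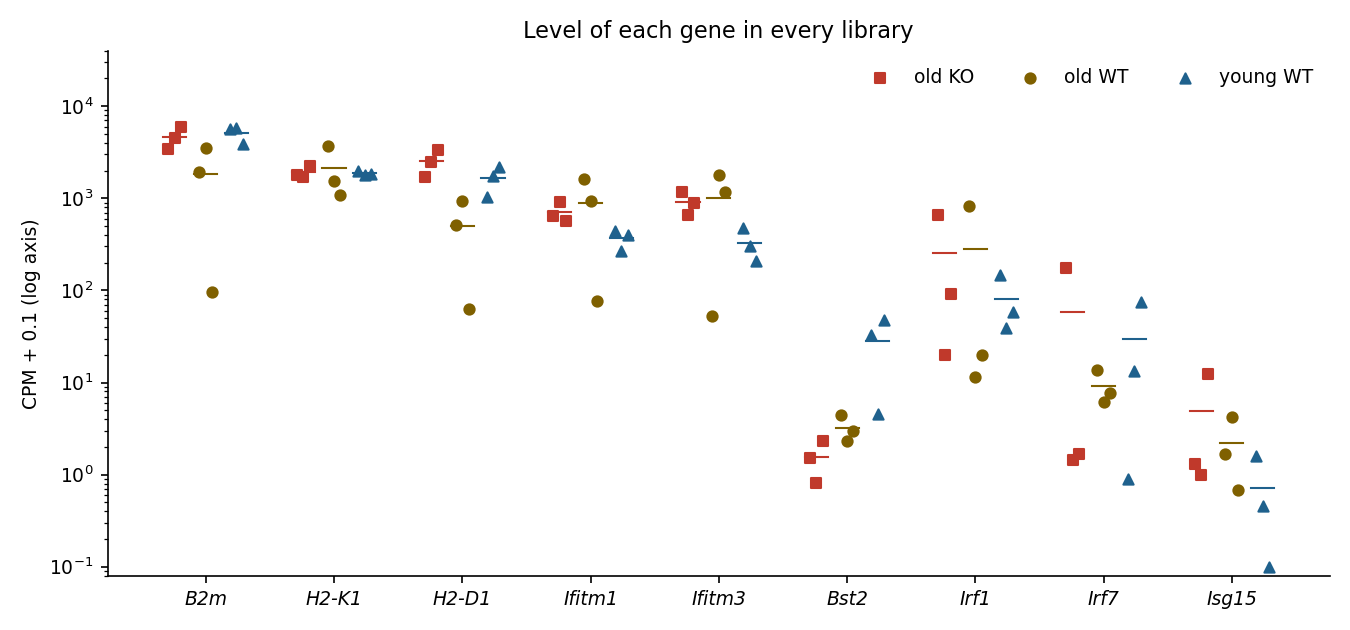
Level of the 9 genes in every library, as CPM + 0.1 on a log axis, with old KO left, old WT in the middle and young WT right of each gene. Points are libraries and short lines are group means of 3. B2m, H2-K1, H2-D1, Ifitm1 and Ifitm3 sit at 207 CPM or more except for 4 old WT values between 52.0 and 96.6 CPM. Bst2 stays under 5 CPM in all 6 old libraries and in young WT library 2.

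The Ifitm genes encode small membrane proteins that block the entry of viruses. Ifitm1 (ENSMUSG00000025491, chr7:140967221-140969825) had 645, 923 and 565 CPM in old KO, 1636, 942 and 76.3 CPM in old WT and 446, 269.5 and 399 CPM in young WT libraries. All 3 old KO libraries lay above the young WT ones, and old WT spanned the ranges of both. Its old KO against young WT fold change was -1.30 ± 1.08 with TMM (adjusted p = 0.343, edgeR) and 0.94 ± 0.93 with total counts (adjusted p = 0.393, edgeR). The sign turned with the scaling and neither was called.

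Ifitm3 (ENSMUSG00000025492, chr7:141009586-141010770) had 1175, 658 and 884 CPM in old KO, 52.0, 1779 and 1164 CPM in old WT and 477, 302 and 207 CPM in young WT libraries. Old KO again lay above young WT without overlap. In old WT the low library was number 1, with 266 counts, whereas Ifitm1 was low in number 3, with 263 counts. Old WT against young WT gave -2.50 ± 1.17 with TMM (adjusted p = 0.0905, edgeR) and 1.62 ± 0.99 with total counts (adjusted p = 0.152, edgeR), neither called and with opposite signs.

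Bst2 (ENSMUSG00000046718, chr8:71534255-71537456) encodes tetherin, which holds budding viruses at the cell surface. It had 1.41, 0.709 and 2.22 CPM in old KO, 4.30, 2.23 and 2.90 CPM in old WT and 32.6, 4.49 and 47.9 CPM in young WT libraries. The 3 groups did not overlap, with old KO lowest and young WT highest, but by narrow gaps. The highest old KO value was 2.223 CPM against 2.226 in the lowest old WT library. The highest old WT value was 4.30 CPM against 4.49 in young WT library 2. In counts these are 19, 8 and 39 in old KO, 22, 7 and 10 in old WT and 2414, 126 and 1487 in young WT libraries. Of the 6 old libraries, only old KO library 3 was above background, at 7.79 times the expected counts, while the young WT libraries stood at 2270, 128 and 1155 times.

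Bst2 was the one gene of the 9 called both with TMM and with total counts. Old WT against young WT gave -7.29 ± 1.64 with TMM (adjusted p = 0.00904, edgeR) and -3.14 ± 1.19 with total counts (adjusted p = 0.0259, edgeR). Old KO against young WT gave -6.34 ± 1.57 (adjusted p = 0.0333, edgeR) and -4.28 ± 1.25 (adjusted p = 0.0136, edgeR). The first call held with each of the 9 libraries left out in turn. The second held in 4 of 9, and was lost without any 1 old KO library, old WT library 1 or old WT library 3. With TMM factors over the 503 genes above background in every group, the first was not called, at -2.77 ± 1.24 (adjusted p = 0.0504, edgeR). The second was called there, at -4.21 ± 1.31 (adjusted p = 0.0160, edgeR). Once background was subtracted, neither was called, at -4.18 ± 2.04 (adjusted p = 0.278, edgeR) and -4.29 ± 2.03 (adjusted p = 0.484, edgeR).

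Bst2 also marks plasmacytoid dendritic cells, which the sort should remove. The 6 markers of that list summed to 32.5 to 120 CPM in old KO, 63.9 to 466 CPM in old WT and 29.1 to 62.7 CPM in young WT libraries, Bst2 included. In at least 2 libraries of a group, 0 of the 6 were above background in old KO and 0 in old WT. In young WT there were 2, Bst2 and Tcf4. Siglech, Ly6d, Spib and Ccr9 were above background in none of the 9 libraries.

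Irf1 (ENSMUSG00000018899, chr11:53770014-53778374) encodes a transcription factor that drives class I genes after interferon gamma. It had 653, 19.8 and 92.1 CPM in old KO, 816, 11.4 and 19.7 CPM in old WT and 146, 38.7 and 58.3 CPM in young WT libraries. In both old groups 1 library, number 1, carried most of the level, and all ranges overlapped. Old WT libraries 2 and 3 held 36 and 68 counts and were not above background. Old WT against young WT was not called with TMM, at -2.31 ± 1.63 (adjusted p = 0.236, edgeR). With total counts the sign turned, to 1.82 ± 1.48 (adjusted p = 0.286, edgeR), again not called. Without old WT library 1 it was called with TMM, at -6.87.

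Irf7 (ENSMUSG00000025498, chr7:141262706-141266481) encodes the factor that amplifies type I interferon production. It had 173, 1.33 and 1.60 CPM in old KO, 13.5, 6.04 and 7.54 CPM in old WT and 0.797, 13.1 and 75.3 CPM in young WT libraries. A single old KO library stood out with 2334 counts, the other 2 holding 15 and 28, and all ranges overlapped. No old WT library was above background. It was called lower in old WT than in young WT with TMM, at -5.57 ± 2.03 (adjusted p = 0.0437, edgeR), but not with total counts, at -1.70 ± 1.69 (adjusted p = 0.384, edgeR). The TMM call was lost without any 1 old WT library or young WT library 3.

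Isg15 (ENSMUSG00000035692, chr4:156199424-156200818) encodes a ubiquitin-like protein that interferon induces strongly. It had 1.19, 0.886 and 12.4 CPM in old KO, 1.56, 4.13 and 0.580 CPM in old WT and 1.51, 0.356 and 0 CPM in young WT libraries. It was above background in old KO library 3, with 217 counts, and young WT library 1, with 112 counts, and in no other. Young WT library 3 held no read of it, and a count of 0 allows up to 3 counts. No comparison called it, and its signal thus came from 1 library in each of 2 groups.

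**Figure D2:**
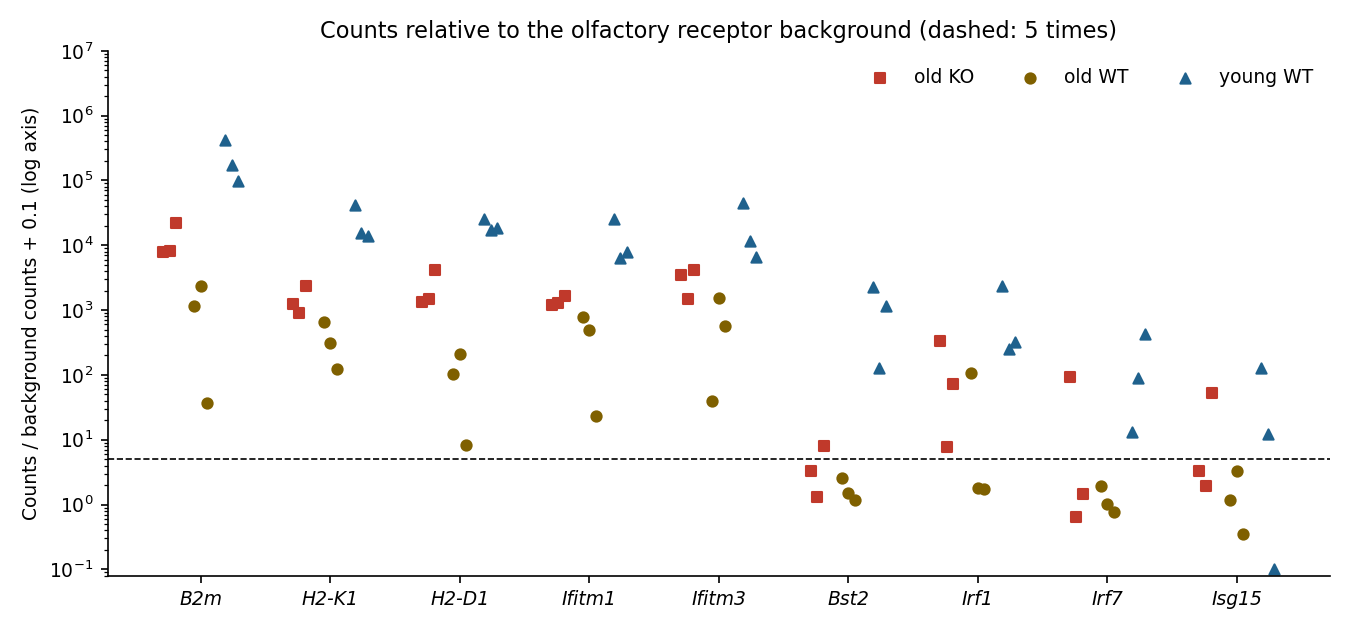
Counts of the 9 genes divided by the counts that the olfactory receptor density predicts for a gene of that exon length, plus 0.1, on a log axis, in every library (old KO left, old WT in the middle, young WT right). The dashed line is 5 times the prediction; B2m, H2-K1, H2-D1, Ifitm1 and Ifitm3 lie above it in all 9 libraries, and Bst2, Irf7 and Isg15 lie below it in all 3 old WT libraries.

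Old KO against old WT compares the Sphk2 genotypes in old cells, in libraries that also differed in depth. None of the 9 genes was called, against 0.457% of all tested genes, which were all higher in old KO (149 of 32582, edgeR with TMM). At an unadjusted p under 0.05 there were 4 of the 9, as were 11.8% of all tested genes. DESeq2 gave 8 of the 9 an adjusted p and called 2, H2-D1 and Irf7, both higher in old KO. It called 26.0% of all genes to which it gave an adjusted p, and 93.4% of those calls were higher in old KO. With total counts 0 of the 9 were called, as 0.00614% of tested genes were (2 of 32582, both higher). All 9 fold changes were positive with TMM, with a median of 1.78 over the 9 genes and -0.04 over all tested genes. With total counts the medians were -0.16 and -1.93. H2-D1 was the 1 gene whose old KO range lay wholly above the old WT range, as for 1.91% of tested genes, and Bst2 the 1 gene whose range lay wholly below, as for 48.8%.

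Old WT against young WT compares the ages in wild-type cells, in libraries that also differed in depth and background. With TMM, 5 of the 9 genes were called lower (B2m, H2-K1, H2-D1, Bst2 and Irf7) and none higher, where 18.4% of all tested genes were called lower, 18.6% higher and 37.0% in either direction. With total counts only Bst2 was called, lower, where 3.43% of tested genes were called lower, 68.5% higher and 71.9% in either direction. The median fold change of the 9 was -3.79 with TMM, against 1.37 over all tested genes, and 0.20 with total counts, against 5.32. CPM ranges lay wholly below those of young WT for B2m, H2-D1 and Bst2, as for 5.87% of tested genes. No gene of the 9 lay wholly above, as 65.0% of tested genes did. In all 3 comparisons, shares and medians over all tested genes come mostly from genes at background. Only 8629 genes were above background in at least 2 libraries of any group, against 32582 tested. A contrast with those shares is therefore not particular to the 9 genes, which were not tested against detected genes alone. B2m, H2-K1, H2-D1 and Bst2 were called with each of the 9 libraries left out in turn. B2m ranged from -6.37 to -4.80 on leaving out 1 library, and stood at -4.80 without old WT library 3 (adjusted p = 0.0301, edgeR). After background subtraction none of the 8 genes that remained was called, and 12 genes were called in all.

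Old KO against young WT asks whether old cells of that genotype stand apart from young cells. Bst2 was the 1 gene called, lower, where 5.84% of tested genes were called lower with TMM, 6.91% higher and 12.8% in either direction. It was also the 1 called with total counts, where 3.92% were called lower, 52.7% higher and 56.6% in either direction. Ifitm1 and Ifitm3 had CPM ranges wholly above young WT, as did 53.5% of tested genes, and Bst2 wholly below, as did 4.06%. The comparison shares its young WT libraries with the one before and its old KO libraries with the first, so the 3 are not independent.

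**Figure D3:**
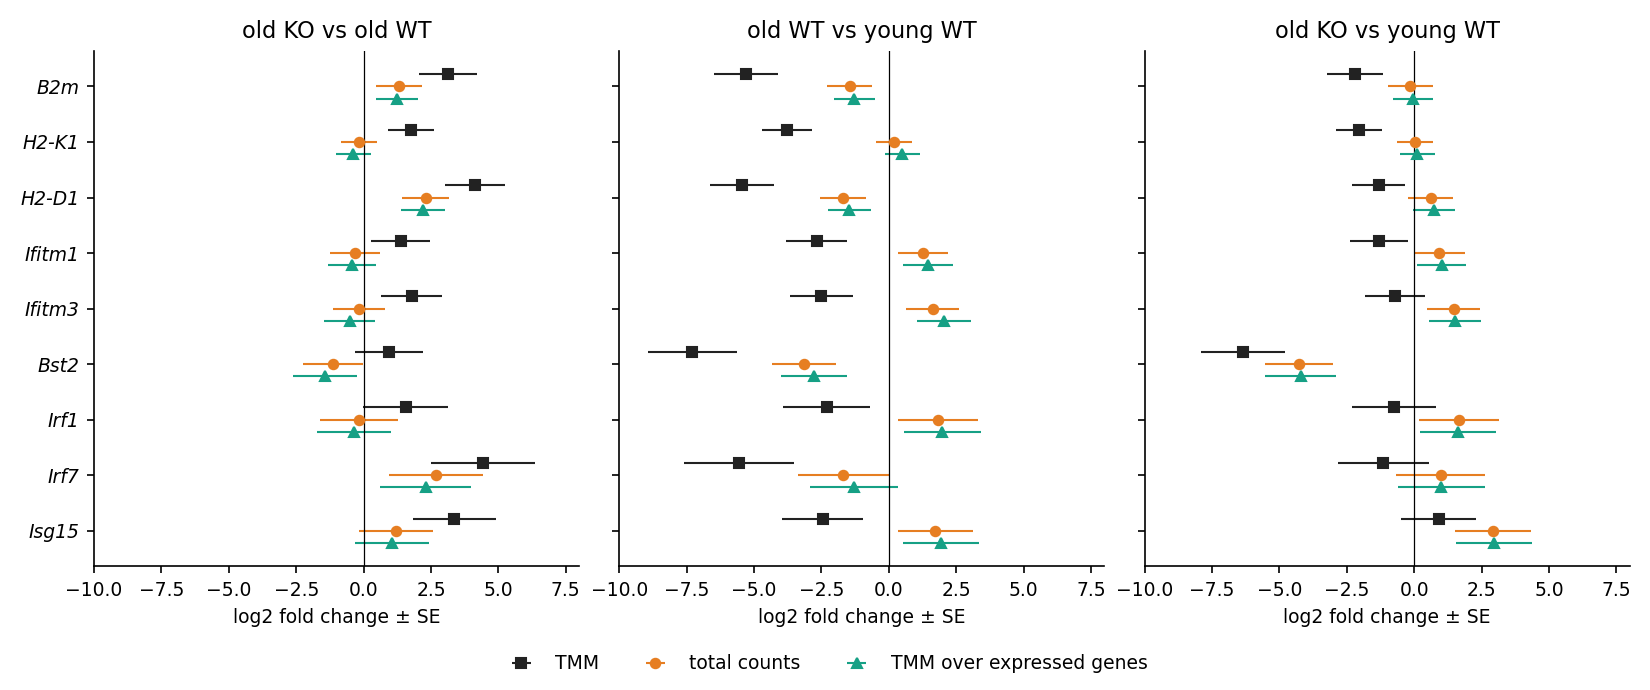
Log2 fold changes ± SE of the 9 genes from edgeR in the 3 comparisons, with TMM factors (squares), total counts (circles) and TMM factors over the 503 genes above background in every group (triangles). Bst2 lies left of 0 under every scaling in both comparisons with young WT, whereas H2-K1, Ifitm1, Ifitm3, Irf1 and Isg15 change side in old WT against young WT.

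Ratios of counts within a library do not depend on its scaling. H2-D1 counts divided by H2-K1 counts gave 0.952, 1.43 and 1.52 in old KO, 0.137, 0.606 and 0.0580 in old WT and 0.524, 0.966 and 1.17 in young WT libraries. Old KO lay above old WT without overlap, and old WT library 2 fell within the young WT range. B2m counts divided by H2-K1 counts gave 1.90, 2.66 and 2.66 in old KO, 0.517, 2.26 and 0.0883 in old WT and 2.86, 3.21 and 2.09 in young WT libraries. Here 2 old WT libraries stood below all the others.

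Ifitm3 counts divided by Ifitm1 counts, from neighbouring genes on chromosome 7, gave 1.82, 0.713 and 1.56 in old KO, 0.0318, 1.89 and 15.3 in old WT and 1.07, 1.12 and 0.520 in young WT libraries. The old WT libraries thus held the lowest and the highest of the 9 ratios. The labels put the old WT libraries in 1 group as technical replicates.

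**Figure D4:**
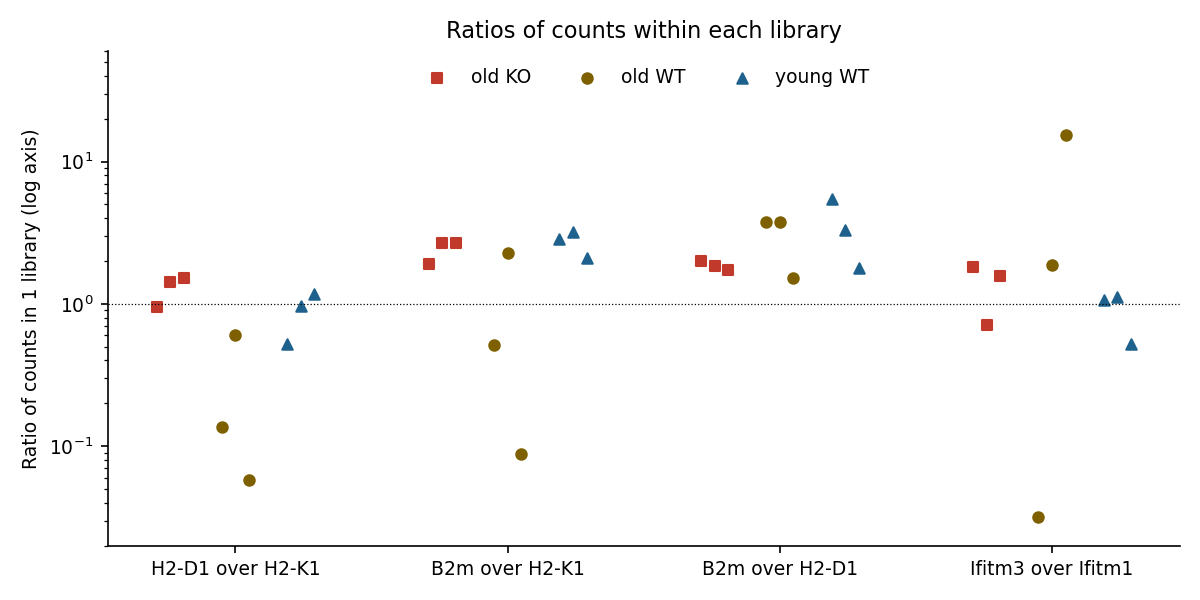
Ratio of the counts of gene pairs within each library on a log axis, old KO left, old WT in the middle and young WT right of each pair, with a dotted line at 1. Old KO and young WT ratios of Ifitm3 over Ifitm1 lie between 0.520 and 1.82, while the 3 old WT libraries span 0.0318 to 15.3.

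The same spread shows gene by gene. On log2(CPM + 1), the SD of B2m was 0.39 in old KO, 2.76 in old WT and 0.32 in young WT libraries. For H2-K1 the SD was 0.20, 0.91 and 0.08 in that order of groups, for Ifitm1 0.37, 2.35 and 0.38, and for Ifitm3 0.42, 2.77 and 0.60. The median SD over 207 protein-coding genes above background in all 9 libraries was 0.34 in old KO, 0.78 in old WT and 0.30 in young WT. Irf1 was spread within both old groups, with SDs of 2.49 in old KO, 3.29 in old WT and 0.97 in young WT. H2-D1 had an SD of 0.49 in old KO, 2.02 in old WT and 0.54 in young WT. Old WT had the largest SD for these 6 genes, but not for the other 3. Bst2 varied most in young WT, with SDs of 0.46, 0.36 and 1.69 in the same order of groups. Irf7 (3.55, 0.54 and 2.71) and Isg15 (1.57, 0.85 and 0.68) varied most in old KO.

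Detection separated the 9 genes into those with strong and those with weak signal. B2m, H2-K1, H2-D1, Ifitm1 and Ifitm3 were above background in all 9 libraries. Over the whole group, 6 of the 9 were above background in all 3 old KO, 5 in all 3 old WT and 8 in all 3 young WT libraries. A set of 1399 protein-coding genes had 50 CPM or more in all 3 young WT libraries, and it holds those 5 genes. Of this set, 788 (56.3%) were above background in all 3 old KO and 178 (12.7%) in all 3 old WT libraries. The 5 genes had at least 207 CPM in young WT, so the set is not matched to their level.

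Levels can be compared between genes once scaled for exon length, as TPM, here counts per exon length scaled to the same total in every library. B2m led in every group, at 10505 ± 3295 TPM in old KO, 3008 ± 2740 in old WT and 12625 ± 2884 in young WT (SD, n = 3 each). It ranked 7 to 12 among 21819 protein-coding genes in old KO libraries, 12 to 251 in old WT and 3 to 6 in young WT. In old KO the order then ran Ifitm3 (2580 ± 684 TPM), H2-D1 (1910 ± 722), H2-K1 (1266 ± 235) and Ifitm1 (1256 ± 314), neighbours that differed by less than the larger of their SDs. In old WT it ran Ifitm3 (2007 ± 1773), Ifitm1 (1158 ± 1049), H2-K1 (1023 ± 724) and H2-D1 (275 ± 235), again closer than the larger SD except for H2-K1 and H2-D1. In young WT it ran H2-K1 (1357 ± 107), H2-D1 (1347 ± 434), Ifitm3 (1040 ± 463) and Ifitm1 (724 ± 189). Irf1, Irf7, Bst2 and Isg15 had means of at most 121 TPM in every group.

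By the Euclidean distance of log2(CPM + 1), centred on each gene's mean over the 9 libraries, the closest of 5432 other protein-coding genes to B2m were Ubb (distance 1.46), H2-D1 (1.85) and Tagln2 (2.03). The closest to H2-K1 were the ribosomal protein genes Rps9 (0.69), Rpsa (0.84) and Rps21 (0.99). The closest to Ifitm1 were Ninj1 (1.71), Cst3 (1.79) and Ptp4a2 (1.98). H2-K1 thus had a pattern nearer to ribosomal protein genes than to the other heavy chain, and B2m and H2-D1 were near each other.

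Among other class I chains, H2-Q7 and H2-T23 were called lower in old WT than in young WT. Of 15 further heavy chain and class I-like genes, 2 were called higher and 0 lower in old KO against old WT with TMM, 2 higher and 5 lower in old WT against young WT, and 1 each way in old KO against young WT. With total counts the numbers were 0 in old KO against old WT, 5 higher and 2 lower in old WT against young WT, and 3 higher and 1 lower in old KO against young WT. Those numbers, and the ones of the lists that follow, stand against the shares of all tested genes given above. For old WT against young WT these were 18.6% higher and 18.4% lower with TMM, and 68.5% higher and 3.43% lower with total counts. The class I chains called higher against young WT were H2-Q1 and H2-T3 with TMM, joined by H2-Q2, H2-Q10 and H2-M2 with total counts. None of these was above background in any library, so the calls do not show a gain in a detected chain. H2-Q7, a nonclassical heavy chain, had 511, 882 and 380 CPM in old KO, 13.1, 20.3 and 17.1 CPM in old WT and 430, 371 and 384 CPM in young WT libraries. H2-T23, which presents leader peptides to natural killer receptors, had 553, 268 and 306 CPM in old KO, 10.8, 48.0 and 14.5 CPM in old WT and 513, 701 and 681 CPM in young WT libraries. In both genes every old WT library lay far below every other library. H2-Q7 was above background in 0 old WT libraries and H2-T23 in 1. The sizes of their differences from old WT were thus mostly not resolved from background.

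Both were called lower in old WT than in young WT. With TMM and with total counts the changes were -8.58 ± 1.22 (adjusted p = 0.00385, edgeR) and -4.53 (adjusted p = 0.000953, edgeR) for H2-Q7. For H2-T23 they were -8.54 ± 1.31 (adjusted p = 0.00424, edgeR) and -4.67 (adjusted p = 0.00113, edgeR). These calls held with each library left out, but not after background subtraction. Both were also the genes called higher with TMM in old KO against old WT, at 6.92 ± 1.13 for H2-Q7 (adjusted p = 0.0329, edgeR) and 5.72 ± 1.15 for H2-T23 (adjusted p = 0.0423, edgeR). With total counts neither was called, each at an adjusted p of 0.146 (edgeR). Leaving out 1 library kept the H2-Q7 call only for old KO library 1 or 2, and the H2-T23 call only for old KO library 2. H2-T10 and H2-M3 were called lower in old WT than in young WT with TMM only, at -5.81 ± 1.90 and -5.79 ± 2.13, calls lost without any 1 old WT library or young WT library 3, and for H2-M3 also without young WT library 2. H2-T10 and H2-M3 were above background in no old WT library. Class I genes are close copies of one another, so reads may have been split between them.

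Peptide loading genes supply and fit the peptides. Of 14, 0 were called in old KO against old WT, 9 were called lower in old WT against young WT and 2 lower in old KO against young WT, with 0 higher in any. Their median fold changes with TMM were 2.10, -4.94 and -3.09 in that order of comparisons, against -0.04, 1.37 and 1.20 over all tested genes. With total counts the medians were 0.32, -1.11 and -0.90, against -1.93, 5.32 and 3.25 over all tested genes, and calls were 0, 2 lower and 1 lower. The chaperone Calr had 1169, 775 and 806 CPM in old KO, 339, 172 and 13.9 CPM in old WT and 759, 632 and 732 CPM in young WT libraries, old WT lying below both other groups. It was called lower in old WT than in young WT with TMM, at -5.90 ± 1.29 (adjusted p = 0.00828, edgeR), and not with total counts, at -2.00 (adjusted p = 0.0752, edgeR). Canx, a chaperone of new heavy chains, and Pdia3, a disulfide isomerase of the loading complex, were called the same way at -6.25 ± 1.27 and -6.31 ± 1.50, with TMM only. Neither was above background in any old WT library. Psme1, a proteasome activator subunit, was called at -3.60 ± 1.07, but turned to 0.57 with total counts, and the call was lost without old WT library 1, old WT library 2 or young WT library 2.

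MHC class II genes, which show peptides to CD4+ T cells, were called by edgeR in 1 comparison only. Of 7 with the invariant chain, 0 were called in old KO against old WT, 5 lower in old WT against young WT and 0 in old KO against young WT with TMM. With total counts 1 was called higher and 1 lower in old WT against young WT, and 0 in the other comparisons. Cd74, the invariant chain, had 230.1, 249.5 and 197 CPM in old KO, 7.04, 67.7 and 12.5 CPM in old WT and 201, 104 and 280.1 CPM in young WT libraries, with old WT below both other groups. It was called lower in old WT than in young WT with TMM, at -6.66 ± 1.41 (adjusted p = 0.00765, edgeR), and with total counts, at -2.73 (adjusted p = 0.0361, edgeR). H2-Aa (-7.01 ± 1.63), H2-Eb1 (-6.08 ± 2.15) and H2-DMa (-4.87 ± 1.55) were called with TMM only. H2-Aa and H2-Eb1 were above background in no old WT library. The H2-Eb1 call was lost without any 1 old WT library or young WT library 1, and the H2-DMa call without old WT library 1, old WT library 3 or young WT library 1. The median over the list with TMM was 2.63, -5.55 and -1.84 in that order of comparisons, and with total counts 1.21, -1.78 and 0.55.

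**Figure D5:**
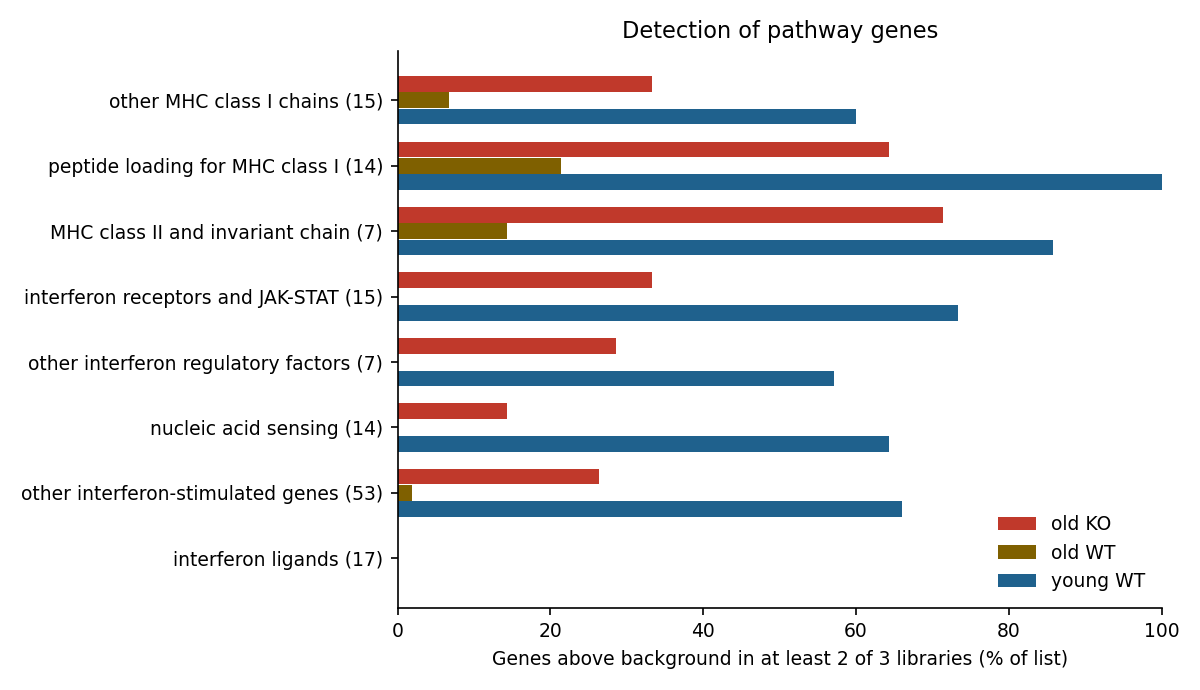
Share of each gene list above background in at least 2 of 3 libraries, in percent of the list, for old KO (top bar), old WT (middle bar) and young WT (bottom bar), with list sizes in parentheses. For peptide loading the counts were 9, 3 and 14 of 14; interferon ligands had 0 of 17 in each group.

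Interferon genes held few counts. Of 17 ligand genes, 7 had enough counts to be tested, and 0 were above background in at least 2 libraries of any group. Ifnl2 was above background in 1 old KO and 1 old WT library, and Ifnz in 1 old KO library. With total counts 7 ligand genes were called higher in old WT and 6 in old KO against young WT. With TMM Ifnl2 was called higher in old WT than in young WT (3.82 ± 1.39, adjusted p = 0.0431, edgeR) and Ifnz higher in old KO than in young WT (6.86 ± 2.02, adjusted p = 0.0427, edgeR). Their levels reached at most 11.6 CPM for Ifnl2 and 10.8 CPM for Ifnz, each in 1 old library, where background was higher. The Ifnl2 call stood only without old KO library 1 or young WT library 3, and the Ifnz call was lost whichever library was left out. The part of background in these calls was not tested.

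Of 15 genes for interferon receptors and JAK-STAT signalling, 0 were called in old KO against old WT, 8 lower in old WT against young WT and 3 lower in old KO against young WT with TMM. With total counts there were 0, 3 higher, and 2 higher and 3 lower in that order of comparisons. Above background in at least 2 libraries were 5 in old KO, 0 in old WT and 11 in young WT. Pias1, a SUMO ligase, had 18.4, 16.9 and 6.67 CPM in old KO, 31.9, 27.0 and 23.5 CPM in old WT and 89.6, 171 and 95.4 CPM in young WT libraries. It lay highest in young WT without overlap, and was called lower with TMM in old WT (-6.00 ± 1.22, adjusted p = 0.00686, edgeR) and in old KO (-5.23 ± 1.18, adjusted p = 0.0308, edgeR). With total counts the change in old WT was -2.09 (adjusted p = 0.0878, edgeR), not called. The old KO call, which was lost without any 1 old KO library, also stood with total counts (-3.08, adjusted p = 0.028, edgeR). The receptor chain Ifngr1 (-6.12 ± 1.64), the phosphatase Ptpn2 (-5.85 ± 1.87) and the kinase Jak1 (-3.84 ± 1.43) were called lower in old WT than in young WT with TMM only. Ifngr1 was above background in no old WT library. The Ifngr1 call was lost without old WT library 1 or 3, the Ptpn2 call without any 1 old WT library or young WT library 1, and the Jak1 call stood only without old KO library 1 or 3 or old WT library 2.

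Of 7 other interferon regulatory factors, 0 were called in old KO against old WT, 4 lower in old WT against young WT and 1 lower in old KO against young WT with TMM. With total counts there were 0 in old KO against old WT, and 2 higher and 1 lower in each of the other comparisons. Irf3, which turns on interferon genes after viral sensing, had 3.42, 2.92 and 4.73 CPM in old KO, 1.37, 11.4 and 11.6 CPM in old WT and 38.9, 216 and 68.1 CPM in young WT libraries. It was above background in young WT libraries only. It was called lower in old WT at -7.53 ± 1.49 with TMM (adjusted p = 0.00642, edgeR) and -3.70 with total counts (adjusted p = 0.0155, edgeR). In old KO the change from young WT was -6.62 ± 1.43 (adjusted p = 0.0303, edgeR), called also with total counts and lost without any 1 old KO library. Irf2 (-5.27 ± 1.39), Irf5 (-4.41 ± 1.63) and Irf9 (-3.63 ± 1.32) were called lower in old WT than in young WT with TMM only, and Irf9 turned to 0.16 with total counts. The Irf2 call was lost without old WT library 2 or 3, the Irf5 call stood only without young WT library 1 or 3, and the Irf9 call only without old KO library 2 or 3 or young WT library 3.

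Nucleic acid sensors and their adaptors start the response to viral RNA and DNA. Of 13 tested, 0 were called in old KO against old WT, 7 lower in old WT against young WT and 4 lower in old KO against young WT with TMM. With total counts there were 0, 3 higher, and 3 higher and 2 lower in that order of comparisons. Among those named, Tbk1, Myd88, Ikbke and the RNA sensor Ddx58 were called lower in old WT with TMM at -6.30 ± 1.69, -6.22 ± 1.86, -4.54 ± 1.46 and -4.50 ± 1.38. None of these 4 was called there with total counts, and each call was lost without any 1 old WT library, that of Ikbke also without young WT library 2.

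The widest list held 53 other interferon-stimulated genes, of which 52 were tested. In old KO against old WT 0 were called, in old WT against young WT 4 higher and 24 lower, and in old KO against young WT 3 higher and 8 lower. With total counts old WT against young WT gave 9 higher and 4 lower, and old KO against young WT 6 higher and 8 lower. Ly6e, a surface protein that alters virus entry, had 1441, 1623 and 1845 CPM in old KO, 81.7, 328 and 496 CPM in old WT and 621, 999 and 928 CPM in young WT libraries. The 3 groups did not overlap, with old KO highest, yet old KO against old WT missed the threshold at 4.51 ± 0.99 (adjusted p = 0.0575, edgeR).

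Shisa5 had 513, 13.0 and 67.1 CPM in old KO, 8.21, 8.90 and 14.5 CPM in old WT and 546, 176 and 269.5 CPM in young WT libraries. Lgals9, which encodes galectin-9, had 2.15, 5.49 and 165 CPM in old KO, 6.45, 10.8 and 20.3 CPM in old WT and 719, 186 and 295 CPM in young WT libraries. Young WT was highest in Lgals9 without overlap, and old KO and old WT overlapped in both genes. Both were called lower in old WT than in young WT with TMM (-9.24 ± 1.67 and -9.35 ± 1.98) and with total counts (-4.95 and -4.97), and with each library left out. Dtx3l was called with TMM only, at -4.83 ± 1.32, and not without old WT library 2 or 3.

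Of 5 other Ifitm genes, 4 were tested. Ifitm2, a close relative of Ifitm3, had 201, 189 and 89.0 CPM in old KO, 1.76, 14.3 and 3.48 CPM in old WT and 91.3, 118 and 125 CPM in young WT libraries. Old WT lay below both other groups, a pattern that Ifitm1 and Ifitm3 did not share. It was called lower in old WT than in young WT with TMM (-7.93 ± 1.46, adjusted p = 0.00572, edgeR) and with total counts (-4.08, adjusted p = 0.00604, edgeR). Old KO against old WT gave 6.27 ± 1.36 (adjusted p = 0.0556, edgeR), not called. Ifitm6 was called higher in old KO than in young WT (7.48 ± 2.21, adjusted p = 0.043, edgeR), and its level came from old KO library 3 alone, at 105 CPM against 0.446 and 0.886 CPM in the other 2. That call was lost whichever library was left out.

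In old KO against old WT, the lists with 0 calls by edgeR still held genes with an unadjusted p under 0.05. There were 6 in peptide loading, 3 in class II, 1 among ligands, 5 in receptors and JAK-STAT, 2 among regulatory factors, 0 among sensors, 16 among other interferon-stimulated genes and 4 among other Ifitm genes. DESeq2 called 5, 3, 0, 3, 2, 0, 13 and 1 in that order of lists, all higher in old KO but for 1 of the 13. It gave an adjusted p to 13, 6, 0, 12, 5, 9, 31 and 1 genes of those lists, so no ligand gene could be called. The unadjusted counts stand against 11.8% of tested genes, and the DESeq2 calls against 26.0% of genes with an adjusted p. Of class II genes in old KO against young WT, 1 had an unadjusted p under 0.05, as had 40.9% of tested genes. DESeq2 called 1 of the 6 with an adjusted p there, lower, where it called 27.6% of all such genes.

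Markers of other blood cells were summed by list in each library. Monocyte and macrophage markers summed to 16.6 to 47.9 CPM in old KO, 99.9 to 175 CPM in old WT and 3.81 to 73.6 CPM in young WT libraries, with 0 of 8 above background in at least 2 libraries of any group. T and natural killer cell markers summed to 19.4 to 181 CPM, 44.8 to 93.7 CPM and 1.59 to 25.7 CPM in that order of groups, with 1, 0 and 1 of 9 above background. B cell markers summed to 7.52 to 163 CPM, 59.0 to 121 CPM and 10.04 to 88.7 CPM, with 0, 0 and 2 of 6. Neutrophil markers summed to 1128 to 2104 CPM, 562 to 1186 CPM and 532 to 812 CPM, most of it from Prtn3, with 3, 2 and 5 of 9. Megakaryocyte markers summed to 274 to 608 CPM, 129 to 432 CPM and 384 to 846 CPM, with 3, 0 and 4 of 6. Erythroid markers summed to 4.90 to 61.5 CPM, 14.3 to 21.2 CPM and 65.8 to 447 CPM, with 0, 0 and 6 of 8. Genes of the CD48-positive progenitor gate summed to 7.64 to 15.3 CPM, 47.3 to 102 CPM and 111 to 449.7 CPM, with 0, 0 and 2 of 4. Their part in the levels of the 9 genes was not tested.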

How the data were processed

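The authors deposited raw read counts per gene for 9 libraries, 1 column each, per the labels. Tools listed in the submitters' processing notes are STAR 2.6.1d, Trim Galore 0.6.2, edgeR 3.24.3 and HTSeq 0.10.0, with genome mm10. For annotation and strand, the setting is not given in the sources used here. Without it, reads of B2m, Irf1 and Irf7 cannot be told apart from those of genes overlapping them (Patl2, Gm17334 and Phrf1). The 5 lines naming no gene stayed out of library sizes. Symbols and exon lengths came from GENCODE M21, which matched 52403 of 52550 identifiers.

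The main test was edgeR 4.0.16 (quasi-likelihood, TMM, filterByExpr, all 9 libraries, Benjamini-Hochberg at 0.05) in R 4.3.3, checked on simulated data. The simulated libraries were all drawn from the young WT profile without a background difference, so they could not show how background affects the calls. DESeq2 1.42.0, other scalings, no filter, a replicate block, background subtraction and leaving out each library were alternatives. CPM uses total counts in genes, and TPM adds exon length. The background was the read density of 1122 olfactory receptor genes, after trimming the densest 1%.

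The members and lists were chosen with earlier results of these data known. Beside the 9 genes, each list gave up to 4 called genes with the highest mean CPM, or up to 2 uncalled ones where fewer than 2 were called.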

Additional observations from a re-analysis of the deposited data

How the results depend on the processing

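Both the number of genes called and the number of the 9 called moved with the processing. The counts rest on different numbers of tested genes. These were 32582 in the main test, 49385 without a filter and 8392 after background subtraction. DESeq2 gave 8555 genes an adjusted p in old KO against old WT. In old KO against old WT, 149 genes and 0 of the 9 were called. The gene count was 2 with total counts, with DESeq2 size factors, with TMM over expressed genes or with the replicate block, 0 with the 6 compared libraries, 271 without a filter, 14 after background subtraction, 11 after subtraction with total counts (chosen after seeing the data) and 2227 with DESeq2, which called 2 of the 9. In old WT against young WT, 12056 genes and 5 of the 9 were called, against 23424 and 1 with total counts, 23510 and 0 with TMM over expressed genes, 12 and 0 after background subtraction, and 16 and 0 after subtraction with total counts. In old KO against young WT, 4155 genes and 1 of the 9 were called, against 18448 genes with total counts, 18370 with TMM over expressed genes, 8327 and 2 with DESeq2, 3 of the 9 with the 6 compared libraries, and 4 and 0 after either subtraction. Total counts made 95.2% and 93.1% of calls against young WT higher in old WT and in old KO, against 50.3% and 54.2% with TMM. Leaving out 1 library gave 0 to 185, 3695 to 11412 and 0 to 4482 genes in that order of comparisons, and 0 to 0, 4 to 5 and 0 to 1 of the 9.

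Same-numbered libraries deviated together with correlations of -0.253 to 0.0755 over 284 genes, so the numbers were not taken as pairing. With the replicate block, old WT against young WT gave 7072 genes and 4 of the 9 (Irf7 lost), and old KO against young WT gave 0 genes and 0 of the 9.

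Signs turned in old WT against young WT for 5 called genes, each value being a log2 fold change that was not called. With total counts, TMM over expressed genes, background subtraction and subtraction with total counts, in that order, H2-K1 gave 0.20, 0.50, 0.67 and 0.67, Psme1 0.57, 1.23, 1.20 and 1.21, and Irf9 0.16, 0.45, 0.37 and 0.22. Jak1 gave 0.25, 0.17 and 0.0236 with the last 3, and Ddx58 0.41 with TMM over expressed genes and 0.0571 with subtraction and total counts. Isg15 gave no value after subtraction. Without length scaling, H2-K1 in place of B2m led in old WT, H2-D1 and H2-K1 passed Ifitm3 in old KO, and B2m led elsewhere. The causes of these changes were not tested. Bst2, Irf7 and Isg15 were not above background in any old WT library, so differences from old WT in these 3 genes were not resolved from background at this depth. The same limit holds for every other named gene that was above background in no old WT library, such as H2-Q7.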
